A study of Saccharomyces cerevisiae with 17 samples.

Results

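In wild-type budding yeast (Saccharomyces cerevisiae), 91 of 5797 gene identifiers had counts of RNA 5′ ends in both libraries made from poly(A)-selected RNA and none in the table made from RNA depleted of ribosomal RNA. They are called poly(A)-only identifiers here. They were selected on the measured counts: at least 20 counts after CIP and TAP treatment, at least 20 after TAP treatment alone, and 0 in ribo depletion. The 0 and the minimum of 20 are therefore descriptions and not findings.

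The counts come from SMORE-seq, which ligates an adapter to the 5′ ends of RNA and so marks where transcripts begin. Of the 17 samples in the series, 5 were used. They are 1 library labelled PolyA-selected CIP-treated Tap-treated, 1 labelled PolyA-selected Tap-treated, and 3 samples labelled Ribo depletion that share 1 table. All 5 are of the strain BY4741, wild type for the genes under study, which carries deletions of the markers his3, leu2, met15 and ura3, and was grown in YPD, a rich medium with glucose, to an optical density of 0.8. The other 12 samples, which map proteins on chromatin and nucleosomes, were not analysed here.

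Most messenger RNAs of yeast carry a cap at the 5′ end and a poly(A) tail at the 3′ end. Selection by the tail keeps such RNA and discards most RNA without a tail, while depletion of ribosomal RNA keeps both kinds. TAP (tobacco acid pyrophosphatase) opens the cap so that an adapter can be joined, and CIP (calf intestinal phosphatase) given first removes the phosphates of uncapped RNA, which blocks ligation to such ends. Yeast genes lie close together, and a divergent pair of genes often shares the stretch of DNA from which both are transcribed.

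The tables held 1097457 counts for CIP/TAP, 864536 for TAP and 2821480 for ribo depletion. The limit that goes with a listed 0 is 3 counts. In ribo depletion this equals 1.06 CPM (counts scaled to a common library total), so a poly(A)-only identifier may hold 5′ ends below that level there. With 1 table per group there was no replicate check, and no test between groups was run. The labels of the ribo depletion samples name neither TAP nor CIP, so the enzyme treatment and the selection cannot be told apart. No label or file header states the strand setting of the counting, so a count listed under an identifier is not read here as expression from that gene. The separate values of the 3 ribo depletion samples were not used here.

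The 91 identifiers held few counts. Together they held 6959 CIP/TAP counts, 0.634% of that table, and 4851 TAP counts, 0.561% of that table. Their CIP/TAP counts lay between 20 and 256 with a median of 52, and their TAP counts between 20 and 180 with a median of 42. Another 1272 identifiers also had at least 20 counts in both poly(A) tables but 1 or more in ribo depletion, with medians of 214.5 CIP/TAP, 168.5 TAP and 255.5 ribo depletion counts. The poly(A)-only identifiers were thus 6.68% of the 1363 identifiers counted in both poly(A) tables.

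The share at 0 in ribo depletion was larger where the poly(A) counts were lower. Going by the smaller of the CIP/TAP and TAP counts, 64 of 339 identifiers with 20 to 49 counts were at 0 in ribo depletion (18.9%). With 50 to 99 counts, 21 of 273 were at 0 (7.69%), and with 100 to 256 counts, 6 of 314 (1.91%). None of the 437 identifiers with 257 or more counts was at 0. This was fixed, because that class starts above 256, the highest poly(A) count of any poly(A)-only identifier. The borders of these classes were set after the counts had been seen.

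**Figure D1:**
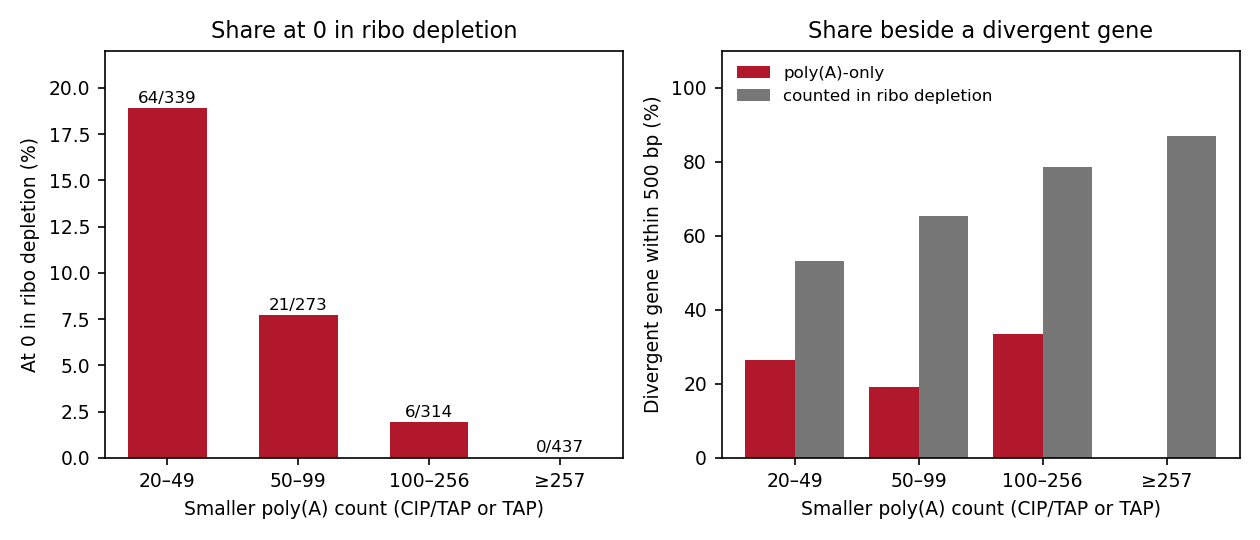
Left, the share of identifiers at 0 in ribo depletion (percent, with the number over the total) by the smaller of their CIP/TAP and TAP counts. Right, the share with a divergent gene within 500 bp upstream (percent) for poly(A)-only identifiers (red) and for those counted in ribo depletion (grey). On the left, 64 of 339 identifiers with 20 to 49 counts are at 0. The class of 257 or more starts above every poly(A)-only identifier, so its 0 of 437 is fixed.

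The rule drew its line through a continuous range. Just inside, BUD20 had 70 CIP/TAP and 20 TAP counts, KRE28 had 47 and 20, and DFP1 had 20 and 121. Just outside the minimum and also at 0 in ribo depletion, GCN4, the activator of amino acid synthesis genes, had 53 CIP/TAP and 19 TAP counts, FCY21 had 38 and 19, and ELP2 had 19 and 21. On the other side, 28 identifiers with at least 20 counts in both poly(A) tables had 1 count in ribo depletion, 16 had 2 and 9 had 3. RAD10, a subunit of a DNA repair nuclease, had 240 CIP/TAP, 156 TAP and 1 ribo depletion counts, and IFA38, a reductase of fatty acid elongation, had 181, 85 and 1.

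The highest poly(A) counts belonged to genes of unrelated functions. SLM5 (YCR024C, R64 chromosome III, 160744 to 162222), the mitochondrial asparaginyl-tRNA synthetase, had 160 CIP/TAP and 139 TAP counts. CLP1 (YOR250C, chromosome XV, 800970 to 802307), a subunit of the factor that cleaves messenger RNA before polyadenylation, had 160 and 130. Both lay close to each other in the poly(A) libraries, and both were at 0 in ribo depletion, as all 91 are by the rule. SNX41 (YDR425W, chromosome IV, 1320064 to 1321941), a sorting nexin of the endosome, had 256 CIP/TAP and 118 TAP counts. NIP100 (YPL174C, chromosome XVI, 220167 to 222773), the large subunit of dynactin, had 243 and 106. These identifiers held the highest CIP/TAP counts of the 91. NFT1 (YKR103W, chromosome XI, 653080 to 656736), a putative transporter of the ABC family, had 131 CIP/TAP and 180 TAP counts, the highest TAP count of the 91.

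SUR1 (YPL057C, chromosome XVI, 451909 to 453057), a catalytic subunit of mannosylinositol phosphorylceramide synthase, had 164 CIP/TAP and 103 TAP counts. VCX1 (YDL128W, chromosome IV, 232652 to 233887), the vacuolar calcium exchanger, had 114 and 88. UBX7 (YBR273C, chromosome II, 748061 to 749371), a partner of the ATPase Cdc48, had 163 and 86. The CIP/TAP table is also the larger of the poly(A) tables. SLD2 (YKL108W, chromosome XI, 234426 to 235787), which joins Dpb11 when replication origins fire, had 210 CIP/TAP and 86 TAP counts. YJR154W (chromosome X, 725784 to 726824), for which no role is given here, had 205 and 84. PLN1 (YKR046C, chromosome XI, 524223 to 525074), a perilipin-like protein of lipid droplets, had 99 and 109 counts, and TYE7 (YOR344C, chromosome XV, 977194 to 978069), an activator of glycolytic genes, had 148 and 76.

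Against ribo depletion each of these is a lower bound, computed against the floor of 3 counts in that table after TMM scaling, which corrects for the few identifiers that hold most counts. The bound leaves out the counting error of the poly(A) count itself. For SNX41 the bound was 105.7-fold in CIP/TAP and 52.7-fold in TAP. It was 54.1-fold in CIP/TAP and 80.4-fold in TAP for NFT1, 66.1-fold and 62.1-fold for SLM5, and 66.1-fold and 58.0-fold for CLP1. Over all 91, the bound had a median of 21.5-fold in CIP/TAP (8.26 to 105.7) and 18.8-fold in TAP (8.93 to 80.4). All 91 bounds were above 2-fold in both comparisons, which the rule fixed. Among all 1363 identifiers counted in both poly(A) tables, 42.2% passed 2-fold in CIP/TAP over ribo depletion and 40.1% in TAP over ribo depletion. Both comparisons use the same ribo depletion table. With scaling by total counts the median bounds were 44.6-fold in CIP/TAP and 45.7-fold in TAP. Relative to total counts, TMM moved every ratio over ribo depletion by −1.05 in CIP/TAP and −1.28 in TAP on the log2 scale.

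**Figure D2:**
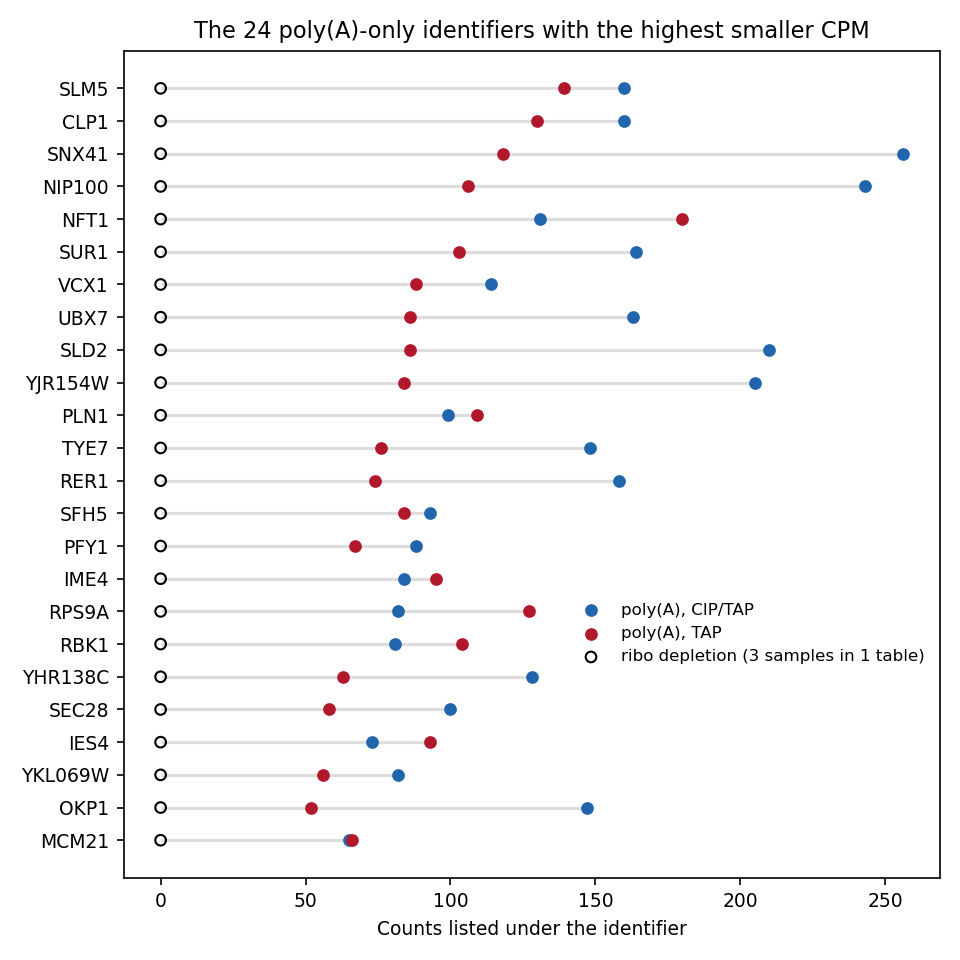
Counts (horizontal axis) in CIP/TAP (blue), TAP (red) and ribo depletion (open circles) for the 24 poly(A)-only identifiers with the highest smaller CPM of the poly(A) tables, 1 row each. All open circles are at 0, and SNX41 and NIP100 reach 256 and 243 CIP/TAP counts.

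The 91 identifiers were grouped by what their genes are known for, after the values had been seen. Of these, 13 belong to transcription and chromatin, with CIP/TAP counts of 24 to 158 and TAP counts of 21 to 93. RAP1, which binds the promoters of ribosomal protein genes and telomeres, had 43 CIP/TAP and 31 TAP counts. MSN2, an activator of the general stress response, had 25 and 22. The other regulators were ASG1 (93 and 27), ERT1 (64 and 21) and TYE7. These counts were unequal between the poly(A) libraries in ASG1 and ERT1 and close in RAP1 and MSN2. Of the polymerase II machinery, RPB4, a polymerase subunit, had 24 CIP/TAP and 22 TAP counts, TAF10, a subunit of TFIID and SAGA, had 33 and 25, and TFB3, a subunit of TFIIH, had 78 and 33. REG1, which directs the phosphatase Glc7 in glucose repression, had 158 CIP/TAP and 21 TAP counts, the most unequal pair of the 91 in that direction.

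Chromatin genes included IES1 and IES4, subunits of the INO80 remodeller whose binding the study also mapped. They had 47 and 73 CIP/TAP counts and 35 and 93 TAP counts. EAF5, a subunit of the acetyltransferase NuA4, had 137 CIP/TAP and 44 TAP counts. HHT1, which encodes histone H3, had 36 CIP/TAP and 24 TAP counts. HHT2, its near-identical copy, had 18 CIP/TAP, 0 TAP and 0 ribo depletion counts, so reads could be split between the copies in a way that the tables do not show.

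RNA processing and export held 8 identifiers. Besides CLP1, these include SYC1, a small subunit of the cleavage and polyadenylation factor, with 39 CIP/TAP and 37 TAP counts. CBC2, the small subunit of the nuclear cap-binding complex, had 21 and 24. YRA1 and THP1, which act in the export of messenger RNA, had 29 and 88 CIP/TAP counts and 22 and 29 TAP counts. Except for THP1, the poly(A) libraries differed little in these. IME4, the messenger RNA methyltransferase that promotes entry into meiosis, had 84 CIP/TAP and 95 TAP counts, and MUM2, its partner in that methylation complex, had 40 and 63. ECM32, a helicase, had 47 and 102.

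IME4 (chromosome VII, 142246 to 144048) was one of 5 poly(A)-only identifiers that overlap another annotated gene. The antisense RNA RME2 (chromosome VII, 141898 to 144120) runs across all 1803 bp of it on the opposite strand, and in haploid yeast transcription of RME2 is known to keep IME4 low. RME2 has no identifier in the tables. Without the strand setting, 5′ ends of IME4 and RME2 cannot be told apart. NAG1, with 34 CIP/TAP and 50 TAP counts, lies wholly inside IMO32 on the opposite strand (492 bp), which had 1606 CIP/TAP, 1122 TAP and 1373 ribo depletion counts. The others were YGR017W (316 bp shared with YGR018C), GRX6 (101 bp with YDL009C) and YJR146W (43 bp with HMS2). A gene overlapping the downstream end was found for 5 of the 91 (5.49%). It was found for 1.02% of the 1272 identifiers also counted in ribo depletion and for 1.45% of all. The difference was not tested.

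Translation held 8 identifiers. RPS9A, a protein of the small ribosomal subunit, had 82 CIP/TAP and 127 TAP counts, while RPS9B, its near-identical copy, was listed at 0 in all 3 tables. RPL29, of the large subunit, had 27 and 27. MRPL17, of the mitochondrial ribosome, had 70 CIP/TAP and 44 TAP counts. The log2 ratio of CIP/TAP over TAP after scaling was −0.81 for RPS9A (95% counting interval −1.23 to −0.40). For MRPL17 (0.48, −0.08 to 1.06) and RPL29 (−0.18, −1.01 to 0.64) the interval spanned 0. GUF1, a mitochondrial translation GTPase, had 33 CIP/TAP and 24 TAP counts. YVH1 and BUD20, which act in maturation of the large subunit, had 51 and 70 CIP/TAP counts and 37 and 20 TAP counts. TRM112, which activates methyltransferases of the translation machinery, had 150 CIP/TAP and 34 TAP counts.

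Of genes of chromosomes and the cell cycle, 7 were found. MCM21 and OKP1, which belong to the same inner kinetochore complex, had 65 and 147 CIP/TAP counts and 66 and 52 TAP counts. KRE28, an outer kinetochore protein, had 47 and 20, and SPC42, of the spindle pole body, had 50 and 33. RAD14, which recognises damaged DNA in excision repair, had 31 CIP/TAP and 33 TAP counts. ECM11, a protein of meiotic chromosomes, had 27 and 42. None of the 7 had a divergent gene within 500 bp upstream, against 25.3% of the 91 and 25.5% of all identifiers. The same held for the 8 mitochondrial identifiers outside translation. With so few identifiers, in groups formed after the values were seen, nothing is read from this. Cytoskeleton and signalling added 5, among them PFY1 (profilin, 88 CIP/TAP and 67 TAP counts), CDC43, a subunit of a protein prenyltransferase (98 and 24), and TUS1, an exchange factor for Rho1 (35 and 44). OCA1 had 59 and 21.

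Lipids and membrane transport held 11 identifiers, none of which differed 2-fold between the poly(A) libraries. Over all 1363 identifiers counted in both, 14.1% were 2-fold higher and 9.1% 2-fold lower in CIP/TAP, and the group was formed after its values were seen. IPT1, which adds the last inositol phosphate in sphingolipid synthesis after the step of SUR1, had 52 CIP/TAP and 56 TAP counts. ISC1, which breaks down these sphingolipids, had 51 and 82. SFH5, a phosphatidylinositol transfer protein, had 93 and 84. NCP1, the reductase of cytochrome P450 enzymes, had 21 and 25, SMF2, a manganese transporter, 62 and 47, BOR1, a boron exporter, 36 and 60, and AQY1, an aquaporin, 22 and 23. Of these 7, ISC1 and BOR1 had the lowest CIP/TAP counts relative to TAP.

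Secretion and protein traffic held 10 identifiers. The median was 136.5 CIP/TAP and 50 TAP counts, and 8 of the 10 had a divergent gene within 500 bp upstream, against 25.3% of the 91, 73.3% of those counted in ribo depletion and 25.5% of all. This group too was formed after its values were seen, and it had the highest such count of the 10 groups. RER1, which returns membrane proteins from the Golgi to the endoplasmic reticulum, had 158 CIP/TAP and 74 TAP counts, and SEC28, a coatomer subunit, had 100 and 58. ALG8, of protein N-glycosylation, had 115 CIP/TAP and 29 TAP counts. YEA4, a transporter of UDP-N-acetylglucosamine, had 165 and 27, and TOS1, a cell wall protein, had 174 and 38. These last counts were among the most unequal of the 91. ULA1, which activates the ubiquitin-like Rub1, had 95 CIP/TAP and 42 TAP counts, and ATG12, the ubiquitin-like protein of autophagy, had 43 and 21.

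Mitochondrial genes outside translation were 8, with CIP/TAP counts of 21 to 55 and TAP counts of 22 to 109. SDH3, a membrane subunit of succinate dehydrogenase, had 21 CIP/TAP and 109 TAP counts. COX20, a chaperone of cytochrome oxidase assembly, had 50 and 66, and YHM2, a carrier of citrate, had 45 and 47. HSP10, the mitochondrial co-chaperonin, had 26 and 31, and GEM1, a GTPase of the outer membrane, 21 and 33. Apart from MLO1 (55 CIP/TAP and 22 TAP counts), these had the higher raw count in TAP, as did FMP25 (22 and 46) and FMP41 (35 and 45). The counting interval of the log2 ratio spanned 0 for YHM2 (−0.87 to 0.37), HSP10 (−1.25 to 0.36) and FMP41 (−1.23 to 0.12). It lay below 0 for SDH3, COX20, GEM1 and FMP25.

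Metabolism held 6 identifiers. ENO2, an enolase of glycolysis, had 26 CIP/TAP and 38 TAP counts, and its near-identical copy ENO1 had 0 CIP/TAP, 16 TAP and 0 ribo depletion counts. GPD1, which makes glycerol 3-phosphate, had 91 CIP/TAP and 43 TAP counts, while its paralog GPD2 had 426, 166 and 656 in CIP/TAP, TAP and ribo depletion. GLY1 (threonine aldolase) had 45 and 54, RBK1 (ribokinase) 81 and 104, GRX6 (a glutaredoxin) 21 and 35, and CIA1, which acts in iron-sulphur cluster assembly, 119 and 30. GPD2 differs from GPD1 in the ribo depletion table, where GPD1 is listed at 0. The other 15 identifiers, with no role given here, were YJR154W, DFP1, YHR138C, YKL069W, YBR072C-A, NAG1, YGR017W, YCR090C, YHR112C, YAL037W, YJR146W, YIL014C-A, YPR170W-B, ESL2 and YSC83. Their CIP/TAP counts lay between 20 and 205 and their TAP counts between 22 and 121.

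The position of the poly(A)-only identifiers in the genome was not used by the rule. They were spread over all 16 chromosomes, with 14 on chromosome IV and 2 on chromosome VI, and no 2 of them were next to each other. The first annotated gene upstream is called divergent where it lies on the opposite strand and is transcribed away, and tandem where it lies on the same strand. Of the 91 poly(A)-only identifiers, 23 (25.3%) had a divergent gene within 500 bp, against 933 (73.3%) of the 1272 identifiers that were also counted in ribo depletion. Over all 5794 identifiers with a position the share was 25.5%. Within 300 bp the shares were 17.6% of the poly(A)-only identifiers, 48.7% of those counted in ribo depletion and 14.3% of all.

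The same order held at each level of poly(A) counts. With 20 to 49 counts in the lower library, a divergent gene lay within 500 bp of 17 of 64 poly(A)-only identifiers (26.6%) and of 146 of 275 counted in ribo depletion (53.1%). With 50 to 99 counts these were 4 of 21 (19%) and 165 of 252 (65.5%), and with 100 to 256 counts 2 of 6 (33.3%) and 242 of 308 (78.6%). Genes that share a genome region are not independent, and no test of these shares was run. At any distance, a tandem gene was the upstream neighbour of 41 poly(A)-only identifiers (45.1%), of 170 of those counted in ribo depletion (13.4%) and of 48.3% of all. A divergent gene at any distance was the upstream neighbour of 48 (52.7%), of 85.8% and of 50.4% in the same order. The median gap to a divergent neighbour was 501 bp for poly(A)-only identifiers, 283 bp for those counted in ribo depletion and 495 bp for all.

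**Figure D3:**
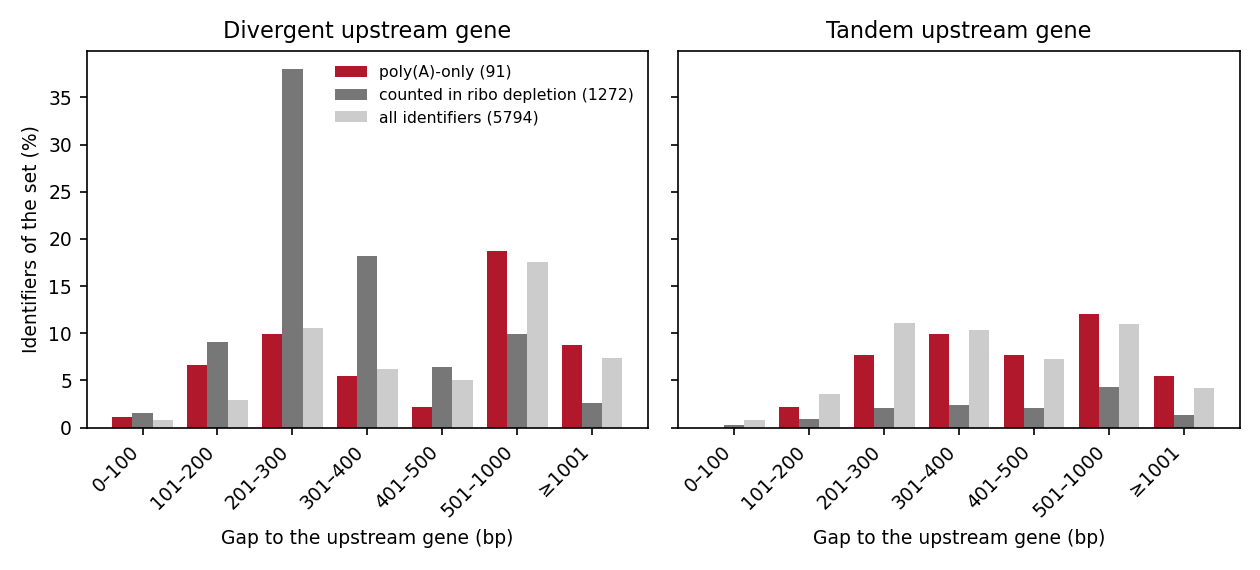
Share of identifiers (percent of each set) by the gap in bp to the upstream gene, for a divergent (left) and a tandem (right) upstream gene; red bars are the 91 poly(A)-only identifiers, dark grey the 1272 counted in ribo depletion, light grey all 5794 with a position. At 201 to 300 bp from a divergent gene lie 9.89% of the poly(A)-only identifiers, 38.1% of those counted in ribo depletion and 10.5% of all.

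Downstream neighbours and gene length differed less. A convergent gene lay downstream of 43 poly(A)-only identifiers (47.3%), of 56.0% of those counted in ribo depletion and of 51.7% of all. The annotated gene was 1095 bp long at the median for poly(A)-only identifiers, 1166 bp for those counted in ribo depletion and 1206 bp for all. The upstream neighbour was a tRNA gene for 8 poly(A)-only identifiers, of which YIL014C-A (24 CIP/TAP and 22 TAP counts) lay 221 bp from a divergent one. The share with a tRNA neighbour was not computed for the other identifiers, so this number is a description only. RAD14 had the noncoding RNA170 in tandem at 243 bp.

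Of the 23 divergent genes within 500 bp of a poly(A)-only identifier, 20 are listed in the tables, and 15 of these 20 (75%) had at least 20 counts in ribo depletion. Among the identifiers counted in ribo depletion, 724 of 914 such neighbours (79.2%) had at least 20. The share was thus near that of the other identifiers. With divergent neighbours at any distance it was 18 of 39 (46.2%) for poly(A)-only identifiers and 785 of 1056 (74.3%) for those counted in ribo depletion. The neighbour had more counts than the poly(A)-only identifier in both poly(A) tables in 11 of 20 pairs, and fewer in both in 6. For the identifiers counted in ribo depletion, the neighbour was higher in both in 320 of 914 pairs. The poly(A)-only identifiers held fewer counts themselves, with medians of 52 CIP/TAP and 42 TAP against 214.5 and 168.5. The numbers of pairs are therefore not read as a difference between the neighbours.

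In 5 pairs the neighbour had at least 1000 ribo depletion counts. The values are raw counts, and the ribo depletion table is the largest of the 3. YHR173C, 173 bp from ENO2, had 31969 CIP/TAP, 30242 TAP and 96800 ribo depletion counts. MMS21, 169 bp from EAF5, had 1008, 860 and 6749 in the same order. YCL002C, 240 bp from RER1, had 6372, 6274 and 3144. SEC5, 227 bp from TAF10, had 6431, 4949 and 3005, and VPS5, 305 bp from ALG8, had 329, 499 and 1364. In all 5 the poly(A)-only identifier stayed below 160 counts in each library. YHR173C, MMS21 and VPS5 had their highest counts in ribo depletion, and YCL002C and SEC5 in CIP/TAP.

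In other pairs the neighbour was on a similar level or lower. DYN2, a dynein light chain 222 bp from SNX41, had 214 CIP/TAP, 253 TAP and 255 ribo depletion counts, where SNX41 had 256, 118 and 0. MRPL40, 369 bp from NIP100, had 383, 167 and 182. CHK1, a checkpoint kinase 222 bp from UBX7, had 70 CIP/TAP, 164 TAP and 12 ribo depletion counts. LSP1, 362 bp from ULA1, was at 0 in all 3 tables, and RPL10, 470 bp from BUD20, had 1 TAP count and 0 in the others. Thus 2 of the 20 listed neighbours were themselves at 0 in ribo depletion.

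**Figure D4:**
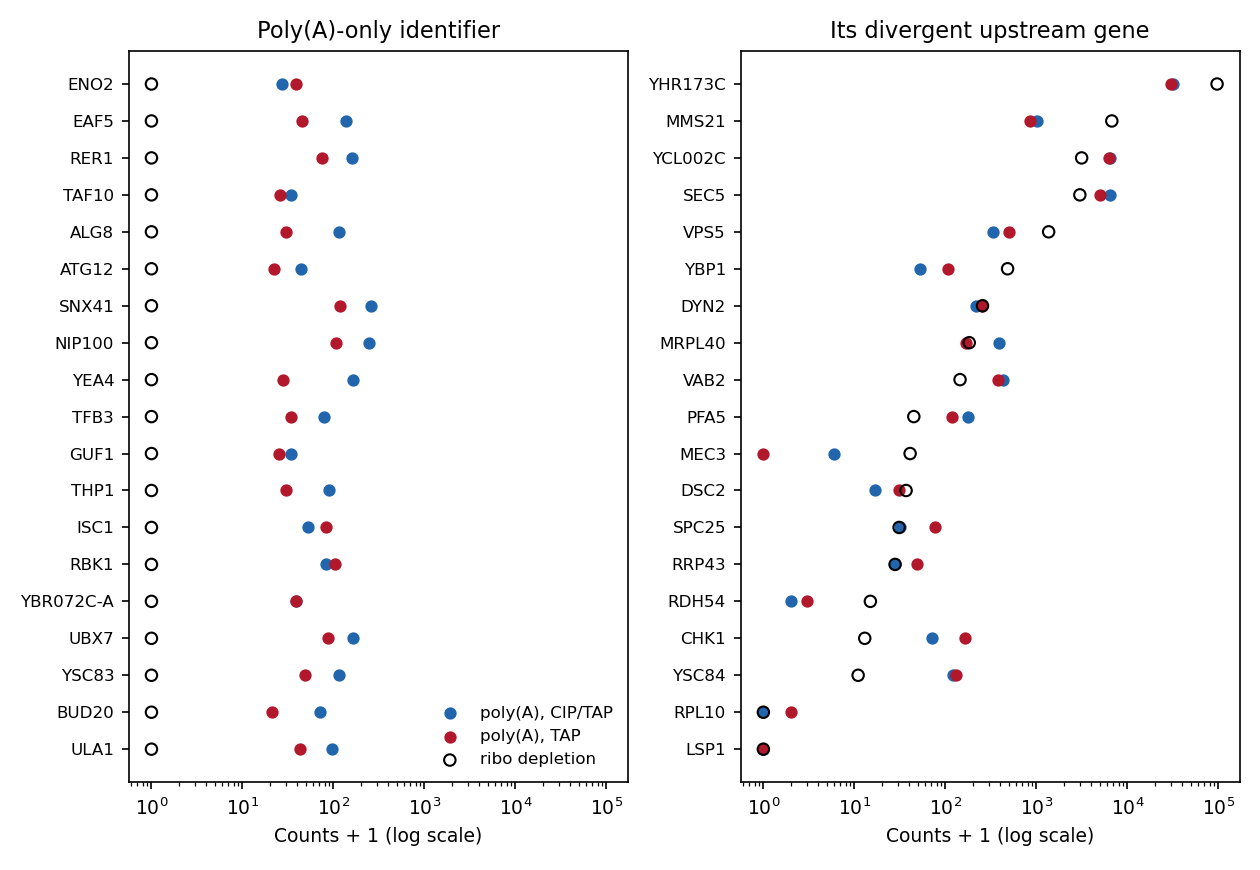
Counts plus 1 (log scale) for 19 of the 20 poly(A)-only identifiers with a listed divergent gene within 500 bp (left) and for that gene (right), 1 pair per row, in CIP/TAP (blue), TAP (red) and ribo depletion (open circles). On the left all open circles are at 0 counts, and on the right they reach 96800 counts for YHR173C.

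Tandem neighbours had fewer counts. Of the 39 listed tandem genes upstream of poly(A)-only identifiers, 25 were at 0 in ribo depletion and 9 had at least 20 (23.1%). For the identifiers counted in ribo depletion, 96 of 152 such genes were at 0 and 32 had at least 20 (21.1%). The share with at least 20 was thus near that of the other identifiers. TUM1, 242 bp upstream of CLP1, had 5650 CIP/TAP, 4656 TAP and 1921 ribo depletion counts, and QCR2, 1372 bp upstream of AQY1, had 624, 270 and 2410. The tandem neighbours of SLM5, VCX1, NFT1, OKP1 and MCM21 were at 0 in all 3 tables. Taking the genes on both sides, 77 poly(A)-only identifiers had both neighbours listed. In 42 of these at least 1 neighbour had 20 or more ribo depletion counts, in 23 both neighbours were at 0 in ribo depletion, and in 11 both were at 0 in all 3 tables. Of all 5797 identifiers, 3389 were at 0 in ribo depletion and 2296 at 0 in all 3 tables. The neighbours on both sides were not counted for the other identifiers, so nothing is read from these numbers.

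The poly(A) libraries agreed less often on identifiers at 0 in ribo depletion. Of 269 such identifiers with at least 20 CIP/TAP counts, 91 had at least 20 in TAP (33.8%) and 90 had 0 (33.5%). Of 1477 identifiers with at least 20 CIP/TAP counts that were counted in ribo depletion, 1272 had at least 20 in TAP (86.1%) and 52 had 0 (3.52%). At 100 or more CIP/TAP counts, 24 of 30 at 0 in ribo depletion (80%) and 907 of 929 counted there (97.6%) had at least 20 in TAP. At 20 to 49 CIP/TAP counts the numbers were 41 of 163 (25.2%) and 165 of 276 (59.8%). Starting from TAP, 91 of 280 (32.5%) and 1272 of 1521 (83.6%) had at least 20 in CIP/TAP. The difference was not tested.

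Within the 91, CIP/TAP and TAP counts were compared as a log2 ratio after TMM scaling, with an exact 95% interval that covers counting error only. The median of the 91 ratios was 0.19, with quartiles of −0.44 and 0.96, and 48 lay above 0. In 22 of 91 (24.2%) CIP/TAP exceeded TAP by 2-fold or more, where 14.1% of all 1363 identifiers counted in both poly(A) tables did. In 4 (4.40%) it was lower by 2-fold or more, where 9.1% of the 1363 were. The minimum of 20 counts in both libraries limits how far a ratio of low counts can go. With 20 to 49 counts in the lower library, 18 of 64 poly(A)-only identifiers (28.1%) and 66 of 275 counted in ribo depletion (24%) were higher, and 4 (6.25%) and 64 (23.3%) were lower. With 50 to 99 counts, 3 of 21 (14.3%) and 57 of 252 (22.6%) were higher, and 0 and 37 (14.7%) were lower. With 100 or more, 1 of 6 (16.7%) and 47 of 745 (6.31%) were higher, and 0 and 19 (2.55%) were lower. The share higher was thus not larger among poly(A)-only identifiers at every level.

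REG1 had the highest ratio of the 91, at 2.70 (2.07 to 3.46), followed by YEA4 at 2.41 (1.83 to 3.07) and TOS1 at 2.00 (1.5 to 2.56). TRM112, CDC43, CIA1, ALG8, BUD20, ASG1, YGR017W, EAF5, THP1, ERT1, OKP1, OCA1, MLO1, SLD2, YJR154W, TFB3, YSC83, KRE28 and NIP100 were the other 19 above 2-fold, down to 1.01 (0.68 to 1.36) for NIP100. The interval lay above 0 in all 22. DFP1, of a family of similar membrane proteins, had the lowest ratio, at −2.75 (−3.54 to −2.09), with 20 CIP/TAP and 121 TAP counts. SDH3 was at −2.53 (−3.31 to −1.88), ECM32 at −1.29 (−1.83 to −0.79) and FMP25 at −1.23 (−2.05 to −0.49). For 42 of the 91 the interval spanned 0, among them SLM5 at 0.02 (−0.32 to 0.36) and CLP1 at 0.11 (−0.23 to 0.46).

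The balance of higher to lower depended on the scaling. With TMM, 84.6% of the calls were higher (22 of 26), with total counts 68.2% (15 higher, 7 lower) and with upper-quartile factors 57.7% (15 higher, 11 lower). DESeq2 size factors gave 85.2% (23 higher, 4 lower), near TMM. Over all 1363 identifiers the same 4 scalings gave 60.8%, 47.6%, 43.1% and 63.7%. Total counts moved the median of all 1363 ratios by −0.16 and upper-quartile factors by −0.20, and with upper-quartile factors the median of the 91 was −0.02.

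**Figure D5:**
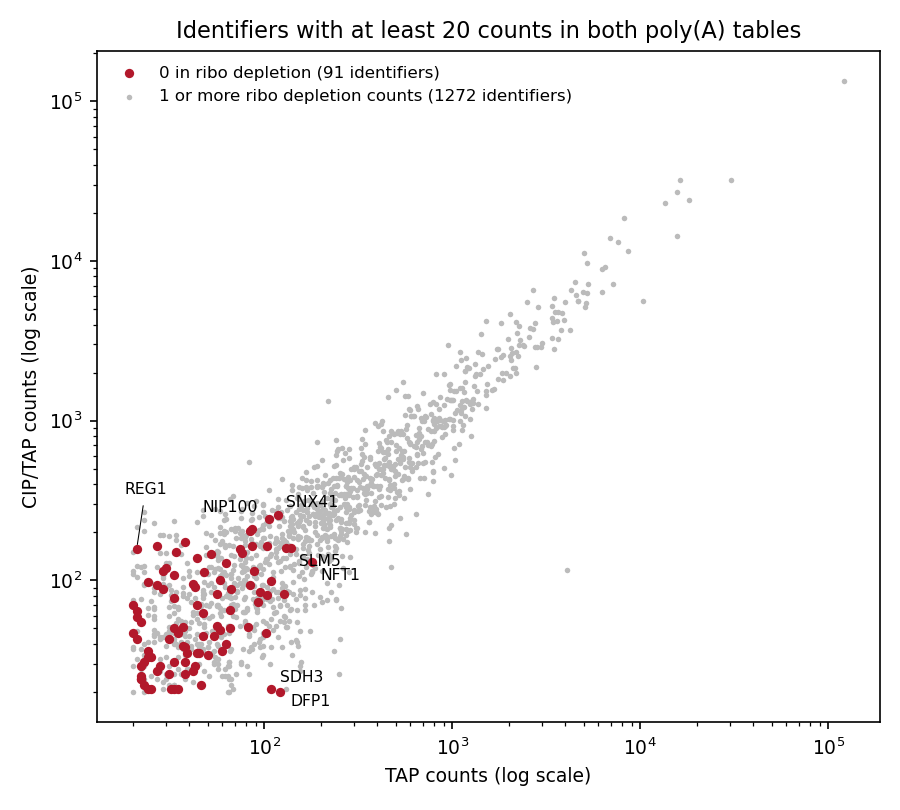
CIP/TAP counts (vertical) against TAP counts (horizontal), both on log scales, for identifiers with at least 20 counts in both poly(A) tables; red points are the 91 at 0 in ribo depletion and grey points the 1272 with 1 or more counts there. The red points lie below 257 counts in both libraries, with REG1 (158 CIP/TAP, 21 TAP) and DFP1 (20 CIP/TAP, 121 TAP) at the sides.

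The 11 lists of pathway genes were drawn up around genes already known to be among the 91, so each holds at least 1 of them by construction and the shares say nothing about a pathway. Of 29 genes of sphingolipid synthesis and breakdown, 3 were (SUR1, IPT1 and ISC1), 9 had at least 20 counts in both poly(A) tables, and 17 were at 0 in ribo depletion. Of 20 vacuolar membrane transporters, 2 were (VCX1 and NFT1), out of 3 with at least 20 in both poly(A) tables. The third, the amino acid transporter AVT6, had 6325 CIP/TAP, 5239 TAP and 13061 ribo depletion counts. Of 19 cleavage and polyadenylation genes, 2 were (CLP1 and SYC1) out of 9, and the poly(A) polymerase gene PAP1 had 5531, 2504 and 44502 counts in the same order. The share at 0 in ribo depletion was 6.68% among all identifiers counted in both poly(A) tables, and nothing is read from the lists against it because of how they were drawn up.

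The other lists had 1 poly(A)-only gene each. For dynein and dynactin it was NIP100, 1 of 7 with at least 20 counts in both poly(A) tables out of 13 genes. The dynactin genes ARP1 and ARP10 had 69 and 122 CIP/TAP, 33 and 166 TAP, and 2 and 30 ribo depletion counts. JNM1 of the same list had 20, 2 and 0, and 5 of the 13 genes were at 0 in ribo depletion. For replication origins it was SLD2, 1 of 7 out of 26, and for mitochondrial aminoacyl-tRNA synthetases SLM5, 1 of 6 out of 14. UBX7 was 1 of 5 out of 14 genes of Cdc48 and its partners, PLN1 1 of 5 out of 19 of lipid droplets, and SNX41 1 of 6 out of 11 listed sorting nexins and retromer genes. ENO2 was 1 of 3 out of 21 genes of glycolysis and fermentation. HHT1 was the only one of 8 core histone genes with at least 20 counts in both poly(A) tables, and all 8 were at 0 in ribo depletion. Past 2-fold between the poly(A) libraries, dynein and dynactin, replication origins and cleavage and polyadenylation each had 1 gene higher and 1 lower in CIP/TAP. Glycolysis, sphingolipids and sorting nexins each had 1 higher and 0 lower, and the other 5 lists had 0 in either direction.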

How the data were processed

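Tables of whole-number counts per gene identifier were used as the authors deposited them, with no normalization, per the file headers. Per the submitters' processing notes, the build was sacCer3 and the tools named were featureCounts, bedtools, BWA 0.6.2 and bcl2fastq, with no role or order. Neither the counted feature nor the way the 3 ribo depletion samples were combined is stated. Of the identifiers, 5794 of 5797 matched the RefSeq gene table of assembly R64, which gave names, positions and neighbours. Strand was read from the W or C of systematic names.

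Each pair of tables was scaled over all identifiers with TMM factors (edgeR 4.0.16, R 4.3.3). Ratios are log2 of (count + 0.5) over scaled size, with exact Clopper-Pearson 95% intervals (scipy 1.17.1, Python 3.11.15). Folds against 0 are bounds from a floor of 3 counts per table. Without molecular identifiers, the intervals cover counting error alone. The bounds take the poly(A) count as it stands and leave out its own counting error. Alternatives were other scalings (DESeq2 1.42.0 size factors among them), thresholds and windows.

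The 12 identifiers with the highest smaller poly(A) CPM, the 3 most extreme ratios each way, list members, the edges of the rule and divergent pairs with a neighbour of at least 1000 ribo depletion counts or not protein-coding were named by rule, and the others were added after their values were seen. The identifiers and lists were chosen with earlier results of these data known. The values of 1 of the 91 are not reported here; it stays in the counts.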

Additional observations from a re-analysis of the deposited data

How the results depend on the processing

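No paired analysis was possible because the ribo depletion samples share 1 table and each poly(A) group has 1 library, and for the same reason no replicate could be left out. The number of poly(A)-only identifiers followed the rule. It was 139 with a minimum of 10 counts, 27 with 50, 144 with up to 3 ribo depletion counts, 280 without the CIP/TAP library and 269 without the TAP library, against 91. The number with a divergent gene within 500 bp was 6 with a minimum of 50, 36 and 45 with up to 1 and 3 ribo depletion counts, 44 and 43 without the CIP/TAP and TAP libraries, and 40 within 1000 bp, against 23. As a share it was 44.0% within 1000 bp. Within 500 bp it lay between 15.7% and 31.3% under the other 5 of these rules and the minimum of 10 counts. Neighbours with at least 20 ribo depletion counts were 5, 26 and 33 with a minimum of 50 and with up to 1 and 3 ribo depletion counts, against 15. The number at least 2-fold higher in CIP/TAP was 41 and 4 with minima of 10 and 50, against 22. The number lower was 17 and 0 with those minima, 10 and 15 with up to 1 and 3 ribo depletion counts, and 7 and 11 with total counts and upper-quartile factors, against 4. The median bound over ribo depletion was 44.6-fold in CIP/TAP and 45.7-fold in TAP with total counts, and 24.2-fold in TAP with upper-quartile factors, against 21.5-fold and 18.8-fold. A rule that takes in fewer or more identifiers changes their number by construction, but the shares moved too. Over minima of 10 and 50 and up to 1 and 3 ribo depletion counts, the share lower was 0% to 12.2%, against 4.4%. The share higher was 29.5% and 14.8% with minima of 10 and 50, against 24.2%. What moved these shares was not tested. For the scalings the cause was not tested. Counting only protein-coding neighbours, an alternative chosen after seeing the data, gave 24 with a divergent gene and 15 with such a neighbour. Of 54 recomputed values, 25 moved and 29 did not move past 1.5 times or the counting interval; the median CIP/TAP over TAP ratio was among the 29, between −0.02 and 0.22.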
